A study of Homo sapiens with 6 samples.

Results

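Integrins are cell surface receptors made of 1 alpha and 1 beta chain, and laminins are secreted trimers of an alpha, a beta and a gamma chain. The chains described here were chosen by gene symbol alone. They were all genes with a symbol of an integrin alpha chain, an integrin beta chain or a laminin chain whose probe set was paired with exactly 1 symbol, and the rule itself used no measured value, although earlier results of these data were known when it was written. This gave 35 of the 18417 named genes on the array, of which 17 were integrin alpha chains, 8 integrin beta chains and 10 laminin chains. Each had 1 probe set. The probe set of ITGA1 is paired with a second gene, and ITGA1 was not analysed here, nor were other chains without a probe set of their own.

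The samples were HCT116 cells, a long-established line from a human colorectal carcinoma, grown in DMEM with serum. Both groups received a transient transfection of a double-stranded RNA oligonucleotide and were taken 48 h later. The 3 control arrays came from cells given siRNA against GFP, and the 3 siChe-1 arrays from cells given siRNA against Che-1, the protein of the AATF gene, which binds RNA polymerase II and acts in the nucleolus. There was no untransfected group, and the labels name neither the oligonucleotide sequences nor separate cultures. The p-values therefore measure only the spread between these arrays, which may be technical.

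Laminins polymerise into the sheet of the basement membrane on which epithelial cells sit. In the gut, alpha3beta1 and alpha6beta4 integrins are the main laminin receptors, and alpha6beta4 anchors keratin filaments in hemidesmosomes. Alpha2beta1 binds collagen, alpha5beta1 binds fibronectin, and the alphaV integrins bind matrix proteins that carry the RGD peptide and help to activate latent TGF-beta. An alpha chain leaves the endoplasmic reticulum only when paired with a beta chain, so the RNA level of 1 chain does not give the number of receptors at the surface.

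AATF, the targeted gene, ran against the labels. Its log2 RMA intensity was 7.55, 7.75 and 7.55 on the arrays labelled control and 8.53, 8.81 and 8.87 on those labelled siChe-1, a difference of 1.12 ± 0.13 (SE, n = 3 each, limma adjusted p = 0.00122). It was thus higher where depletion is stated, and whether the labels of the groups are exchanged cannot be told from the files used here. Below, "lower" and "higher" refer to the arrays labelled siChe-1 relative to the arrays labelled control, and with exchanged labels each sign would be the opposite. The exact two-sided permutation test of the AATF values gave p = 0.1, which is the lower limit of that test with 3 arrays in each group, so single values were judged by the limma fit over all 18417 genes.

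The epithelial label was set against marker genes. KRT8 lay at 12.5 and 12.1 in the control and siChe-1 groups, KRT18 at 12.1 and 11.7 and EPCAM at 10.4 and 10.1, while VIL1, a brush border gene, lay at 3.63 and 3.71. Of 10 measured epithelial markers 1 was higher (ELF3) and 1 lower (KRT19), where 1.19% and 2.52% of all genes were. At an unadjusted p under 0.05 by limma, 2 of the 10 were higher and 3 lower, KRT8 and KRT18 among the latter. Over all genes 7.88% were higher and 9.77% lower at that level. The groups did not overlap in 5 of the 10 markers, where 24.0% of all genes behaved so. No marker of other lineages passed the limma test, where 3.72% of all genes did. These were 0 of 12 leukocyte, 0 of 8 platelet and endothelial, and 0 of 9 fibroblast and muscle markers. At an unadjusted p under 0.05 by limma there were 2, 0 and 1 of them, where 17.7% of all genes were. PTPRC, which defines leukocytes, read 2.41 and 2.46. Not all of these markers were that low: TYROBP of the leukocyte list read 5.84 and 6.07, and NKG7 read 5.41 and 5.58. COL1A1 of the fibroblast and muscle list read 7.02 and 7.41, with no overlap of the groups (limma adjusted p = 0.107). Summed over the leukocyte list, log2 intensity ran from 42.8 to 43.4 on the control arrays and from 44.3 to 45.0 on the siChe-1 arrays. The sums of the fibroblast and muscle list ran from 35.4 to 35.7 and from 36.1 to 38.1, and those of the platelet and endothelial list from 28.4 to 29.7 and from 29.0 to 31.1. The array medians likewise ran from 4.95 to 5.0 and from 5.03 to 5.05. The part of these marker shifts in the results was not tested. For the array medians, a fit with the arrays centred on their common median is given at the end.

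The table has no detection calls. As a description of its low end, the 90th percentile of the 29 markers of other lineages was taken, which was 5.39 on the log2 scale. A chain whose higher group mean was not above this level is said to lie "in the low range", where signal above background is not shown and a difference of size 0 does not show that the RNA was unchanged. Probe sets differ in how strongly they bind, so intensities of different chains are not amounts of RNA that can be ranked. By this description 14 chains lay above the level (ITGA2, ITGA3, ITGA5, ITGA6, ITGAV, ITGB1, ITGB4, ITGB5, LAMA5, LAMB1, LAMB2, LAMB3, LAMC1 and LAMC3), and 21 did not. With the median of the same markers as the level, 28 chains lay above it.

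Of the chains, LAMB3, LAMC1, ITGA6 and ITGB5 were lower, and no chain was higher at a limma adjusted p under 0.05. That is 4 of 35 chains, or 11.4%, where 2.52% of all named genes were lower, 1.19% were higher and 3.72% passed in either direction. The other 31 chains did not pass. At an unadjusted p under 0.05 by limma, 8 chains were lower and 1 was higher, where 9.77% of all genes were lower and 7.88% higher. The median difference of the 35 chains was -0.09 on the log2 scale, beside 0.01 for all genes, and 21 chains had a difference below 0. In 11 chains, or 31.4%, the 3 arrays of one group did not overlap those of the other, where 24.0% of all genes behaved so. In 8 of these, or 22.9%, the siChe-1 arrays were the lower ones, where 13.3% of all genes did.

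**Figure D1:**
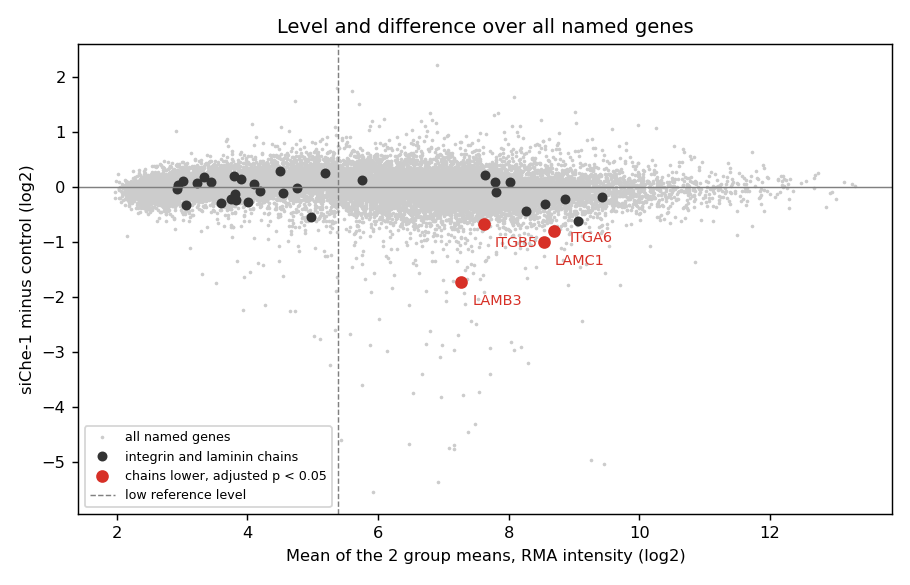
Mean RMA intensity (x axis, log2) against the difference of siChe-1 minus control (y axis, log2) for 18417 named genes in grey, the 35 chains in black and the 4 called chains in red; the dashed line is the low reference level of 5.39. The 4 called chains lie right of that line and below 0, with LAMB3 at -1.72, while the chains left of it lie between -0.55 and 0.30.

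LAMB3 showed the largest difference of the 35. It encodes the laminin beta3 chain, which is found in the laminin of hemidesmosomes, where alpha6beta4 integrin binds. Its 3 control arrays read 8.04, 8.11 and 8.26 and its 3 siChe-1 arrays 6.19, 6.66 and 6.40, so that the lowest control array stood more than 1 log2 unit above the highest siChe-1 array. The group means were 8.14 ± 0.11 and 6.42 ± 0.24 (SD, n = 3 each). The difference was -1.72 ± 0.14 (SE, 95% confidence interval -2.04 to -1.40, limma adjusted p = 9.31e-05), which is 3.29-fold between the groups. The usual partner chains of beta3 were not analysed here.

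LAMC1 encodes gamma1, the gamma chain shared by most laminins of the body. It read 8.93, 8.99 and 9.17 on the control arrays and 7.81, 8.26 and 8.06 on the siChe-1 arrays, again with no overlap. The difference was -0.99 ± 0.14 (SE, 95% confidence interval -1.31 to -0.67, n = 3 each, limma adjusted p = 0.00400), which is 1.99-fold between the groups. LAMB3 and LAMC1 passed in each of the 6 fits that left out 1 array, with differences between -1.84 and -1.61 for LAMB3 and between -1.10 and -0.87 for LAMC1.

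The sequences just before the transcription starts of these 2 laminin genes are shown because they carry the 2 largest falls. They are the 250 bases upstream of a RefSeq start (GRCh38.p14), 5′ to 3′ on the strand of the gene, with GC boxes (GGGCGG, either strand) and AP-1 motifs (TGANTCA, which reads alike on both strands) in capitals. RefSeq gives LAMB3 3 starts on chromosome 1, of which the most upstream (chr1:209652426-209652675, minus strand) and the most downstream (chr1:209651375-209651624, minus strand) are printed, and gives LAMC1 1 start (chr1:183023170-183023419, plus strand).
LAMB3 upstream start: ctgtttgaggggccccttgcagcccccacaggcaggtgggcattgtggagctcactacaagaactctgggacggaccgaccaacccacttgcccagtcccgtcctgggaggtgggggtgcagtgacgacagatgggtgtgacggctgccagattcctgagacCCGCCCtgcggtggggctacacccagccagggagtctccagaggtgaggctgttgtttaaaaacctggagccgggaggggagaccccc
LAMB3 downstream start: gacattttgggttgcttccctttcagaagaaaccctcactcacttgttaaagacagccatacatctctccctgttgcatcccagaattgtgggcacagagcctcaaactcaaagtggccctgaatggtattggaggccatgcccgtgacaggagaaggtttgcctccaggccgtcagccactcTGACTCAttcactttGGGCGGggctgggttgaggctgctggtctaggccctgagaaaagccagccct
LAMC1 start: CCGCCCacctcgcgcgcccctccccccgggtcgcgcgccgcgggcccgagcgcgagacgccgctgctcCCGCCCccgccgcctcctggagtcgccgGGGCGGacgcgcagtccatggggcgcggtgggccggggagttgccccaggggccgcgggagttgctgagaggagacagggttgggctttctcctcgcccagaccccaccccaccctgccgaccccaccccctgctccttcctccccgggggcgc

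The downstream LAMB3 window holds an AP-1 motif that begins 67 bases before the start and a GC box that begins 52 bases before it, and the 2 do not overlap. The LAMC1 window holds 3 GC boxes, at 250, 182 and 154 bases, and no AP-1 motif. RefSeq windows were found for 24 of the 35 chains. Some genes have several windows, which can overlap and share a motif, so genes were counted. Each of the 4 lower genes had a window with a GC box, as did 6 of 7 chains that lay above the low reference level and did not pass, and 46.2% of all 27305 genes with a window. An AP-1 motif was found in 1 of the 4 and 0 of the 7 genes, and in 8.06% of all. Of all 24 chains with a window, 13 (54.2%) had a GC box and 1 (4.17%) an AP-1 motif. Counting genes favours those with more windows. The 4 lower genes had 9 windows, 7 of them with a GC box, and the 7 genes had 9, 6 of them with one. Of 35116 RefSeq windows of this length, 42.6% held a GC box and 6.57% an AP-1 motif. A match is a run of letters, not a shown binding site, and the array does not tell which start was used.

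The other laminin chains gave no call. LAMB1 and LAMB2, the beta chains of the widespread laminins, differed by 0.09 ± 0.14 and -0.09 ± 0.13 (SE). LAMB2 read 7.74, 7.84 and 7.97 on the control arrays and 7.78, 7.89 and 7.62 on the siChe-1 arrays, so the groups overlapped. LAMA5, the alpha chain typical of mature epithelial basement membrane, read 7.88, 7.92 and 8.12 against 8.31, 8.06 and 7.81, with a difference of 0.09 ± 0.15 (SE, 95% confidence interval -0.24 to 0.42, limma adjusted p = 0.814). The intervals of LAMB1 (-0.22 to 0.41) and LAMB2 (-0.37 to 0.19) likewise leave room for changes of that size but not for one as large as that of LAMC1. LAMC3 read 5.68 in the control and 5.81 in the siChe-1 group. LAMA1, LAMA2, LAMA4 and LAMB4 had group means between 2.90 and 3.98, all in the low range, and differences between -0.30 and 0.14. LAMA4, the laminin alpha chain of vessels, read 3.66, 3.69 and 3.90 against 3.12, 3.66 and 3.58, with overlapping groups (limma adjusted p = 0.380).

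**Figure D2:**
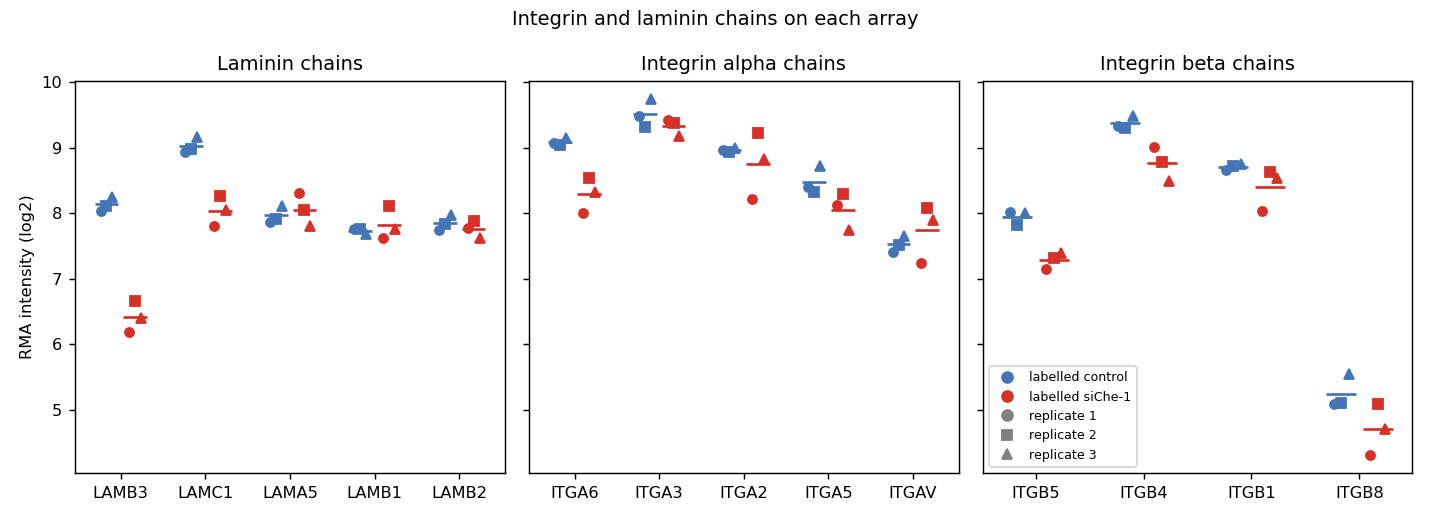
Log2 RMA intensity (y axis) of 14 chains on each of the 6 arrays, control in blue and siChe-1 in red, with a symbol for each replicate number and a bar at each group mean. LAMB3, LAMC1, ITGA6 and ITGB5 separate fully between the groups, as do ITGB4, ITGB1 and ITGA5, which did not pass. The red points of LAMA5, ITGA2 and ITGAV lie on both sides of the blue ones.

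Among the laminin-binding alpha chains only ITGA6 passed. ITGA6 encodes alpha6, the partner of beta4 in hemidesmosomes and of beta1 elsewhere. It read 9.07, 9.05 and 9.16 on the control arrays and 8.01, 8.54 and 8.33 on the siChe-1 arrays, and the groups did not overlap. The difference was -0.80 ± 0.15 (SE, 95% confidence interval -1.13 to -0.47, n = 3 each, limma adjusted p = 0.0159), which is 1.74-fold between the groups. The size changed little when single arrays were left out (-0.92 to -0.66), but the call was lost without any 1 of the control arrays or without siChe-1 replicate 3, with adjusted p between 0.0516 and 0.0874.

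ITGA3, the alpha3 chain of the other main epithelial laminin receptor, read 9.48, 9.31 and 9.75 against 9.43, 9.38 and 9.18. Its groups overlapped, and the difference was -0.19 ± 0.14 (SE, 95% confidence interval -0.50 to 0.13, limma adjusted p = 0.563). ITGA7, a laminin receptor chain of muscle, read 5.14, 5.20 and 4.82 against 5.46, 5.27 and 5.22. Its groups did not overlap, the difference was 0.26 (limma adjusted p = 0.367), and it lay in the low range. The 3 laminin-binding alpha chains thus gave 1 lower call and 2 without a call.

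None of the 3 collagen-binding alpha chains passed. ITGA2, the alpha2 chain of the epithelial collagen receptor, read 8.97, 8.95 and 8.99 on the control arrays, a spread of 0.02 (SD), but 8.23, 9.23 and 8.83 on the siChe-1 arrays, a spread of 0.50. The siChe-1 arrays thus lay on both sides of the control arrays, and the difference of -0.21 ± 0.21 (SE, limma adjusted p = 0.676) changed sign to 0.06 without siChe-1 replicate 1. ITGA10 and ITGA11, chains of cartilage and of fibroblasts, had group means between 3.64 and 4.15, in the low range.

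Among the alpha chains of RGD-binding receptors, ITGA5 read 8.40, 8.33 and 8.73 against 8.12, 8.30 and 7.74. The groups of this fibronectin receptor chain did not overlap, by a margin smaller than the spread in either group, and the difference of -0.43 ± 0.17 (SE, 95% confidence interval -0.81 to -0.06) did not pass (limma adjusted p = 0.214). ITGAV, the alpha chain shared by several RGD receptors, read 7.42, 7.51 and 7.65 against 7.25, 8.09 and 7.91. Its siChe-1 replicate 1 was below every control array and its other siChe-1 arrays were above them. The difference was 0.22 ± 0.20 (SE, limma adjusted p = 0.629). Without siChe-1 replicate 1 it was 0.47 with adjusted p = 0.0394, the single higher call among the 35 chains in any fit that left out 1 array. ITGA8, of mesenchyme, read 3.13, 3.41 and 3.10 against 2.78, 2.93 and 2.98, and ITGA2B, of platelets, 4.35, 4.25 and 4.46 against 4.56, 4.78 and 4.61. Both had groups that did not overlap, at -0.31 and 0.30 with limma adjusted p = 0.241 each, and both lay in the low range.

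ITGB5 was the single beta chain that passed. Its product, beta5, pairs with alphaV to bind vitronectin. It read 8.02, 7.83 and 8.0 on the control arrays and 7.15, 7.31 and 7.39 on the siChe-1 arrays, and the highest siChe-1 array lay below the lowest control array. The difference was -0.67 ± 0.12 (SE, 95% confidence interval -0.94 to -0.39, n = 3 each, limma adjusted p = 0.0163), which is 1.59-fold between the groups. The call was lost without control replicate 1 (-0.63, adjusted p = 0.0958) or control replicate 3 (-0.64, adjusted p = 0.0853).

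ITGB4 came next in order of p. Beta4 is found with alpha6 and has a long cytoplasmic part that binds plectin. It read 9.33, 9.31 and 9.48 against 9.02, 8.78 and 8.49, with no overlap, and the difference of -0.61 ± 0.15 (SE, 95% confidence interval -0.94 to -0.28, 1.53-fold between the groups) had a limma adjusted p of 0.0527. Without siChe-1 replicate 1 it was -0.74 with adjusted p = 0.00680, and without any other single array it did not pass (highest adjusted p = 0.190). ITGB4 therefore stands at the threshold, and the interval, which is not adjusted for the number of genes, does not reach 0.

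ITGB1 encodes beta1, the partner of the largest number of alpha chains. It read 8.66, 8.72 and 8.76 on the control arrays and 8.04, 8.64 and 8.55 on the siChe-1 arrays. The groups did not overlap, but replicates 2 and 3 of siChe-1 lay close to the control arrays, and the difference of -0.31 ± 0.16 (SE, 95% confidence interval -0.67 to 0.05) did not pass (limma adjusted p = 0.369). Without siChe-1 replicate 1 it was -0.12. ITGB8, which pairs with alphaV and activates TGF-beta, read 5.08, 5.11 and 5.54 against 4.31, 5.09 and 4.70, at -0.55 ± 0.20 (SE, limma adjusted p = 0.185), in the low range and with overlapping groups. ITGB2, ITGB3, ITGB6 and ITGB7 had group means between 2.92 and 4.77, all in the low range, and differences between -0.01 and 0.20, none of which passed. In ITGB2 the groups did not overlap, with the siChe-1 arrays the higher ones, while in ITGB3, ITGB6 and ITGB7 they overlapped.

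The leukocyte alpha chains ITGAD, ITGAE, ITGAL, ITGAM and ITGAX had group means between 3.24 and 4.60, and ITGA4 and ITGA9 between 3.40 and 4.14. None of these 7 passed, all lay in the low range, and the groups overlapped in each. Their differences lay between -0.24 for ITGAM and 0.18 for ITGAL.

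**Figure D3:**
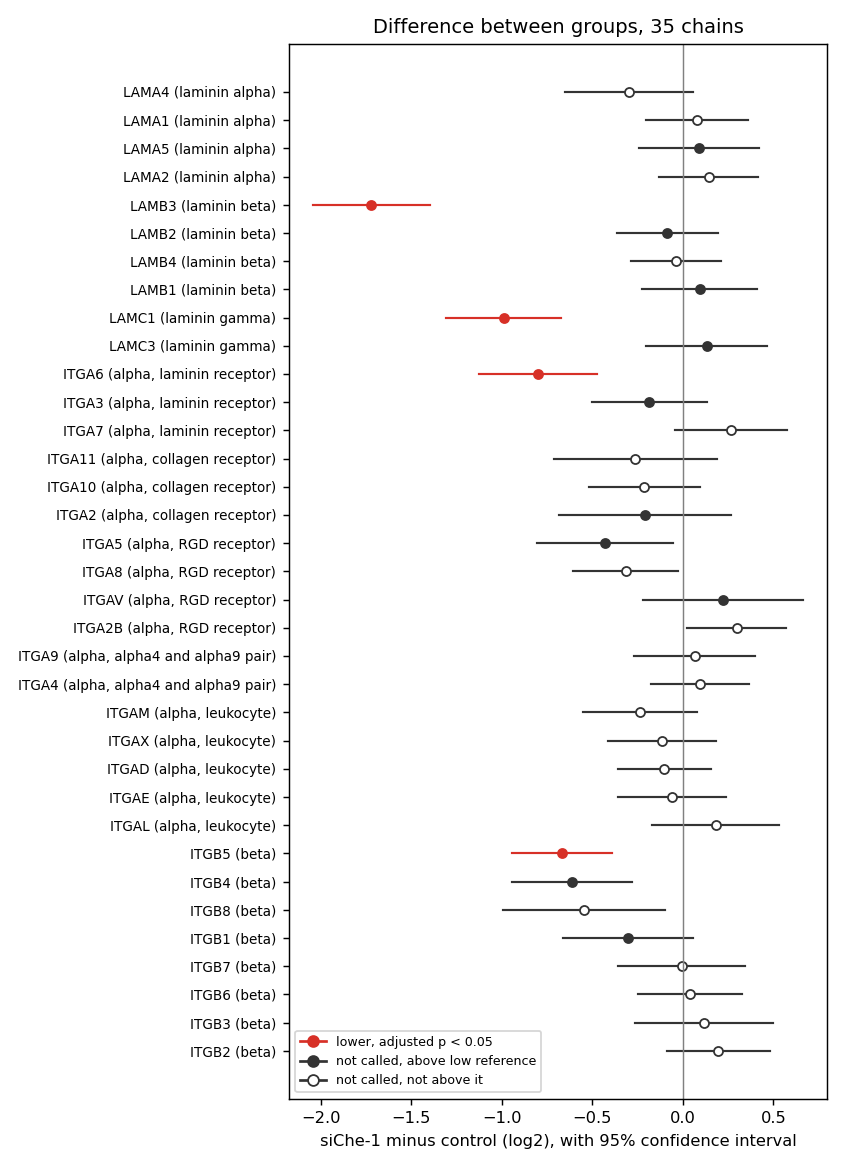
Difference of siChe-1 minus control (x axis, log2) for the 35 chains, ordered by role, with 95% confidence intervals from the limma fit; red marks the 4 lower chains and open circles the 21 chains not above the low reference level. LAMB3 and LAMC1 are set apart from the other laminin chains. The intervals are not adjusted for the number of genes. That of ITGB4 (-0.94 to -0.28) lies below 0 although it did not pass. So do those of ITGA5, ITGB8 and ITGA8, while that of ITGA2B lies above 0, and none of these passed.

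The 3 siChe-1 arrays differed among themselves more than the control arrays did. Of the 14 chains above the low reference level, 13 had a larger SD over the siChe-1 arrays than over the control arrays, where 62.8% of all genes did. Replicate 1 of siChe-1 was the lowest of its group for 8 of the 14 (ITGA2, ITGA6, ITGAV, ITGB1, ITGB5, LAMB1, LAMB3 and LAMC1) and replicate 3 for the other 6 (ITGA3, ITGA5, ITGB4, LAMA5, LAMB2 and LAMC3). Replicate 2 was the lowest for 0. Leaving out siChe-1 replicate 1 moved the count over all genes to 1565, from 685 with all arrays. Without that array 5 chains (the 4 above and ITGB4) were lower, where 4.48% of all genes were. Leaving out control replicate 1 or 3 left 2 lower chains, LAMB3 and LAMC1. In these fits 210 and 199 of all genes were lower, beside 465 with all arrays, so calls were lost over all genes too.

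**Figure D4:**
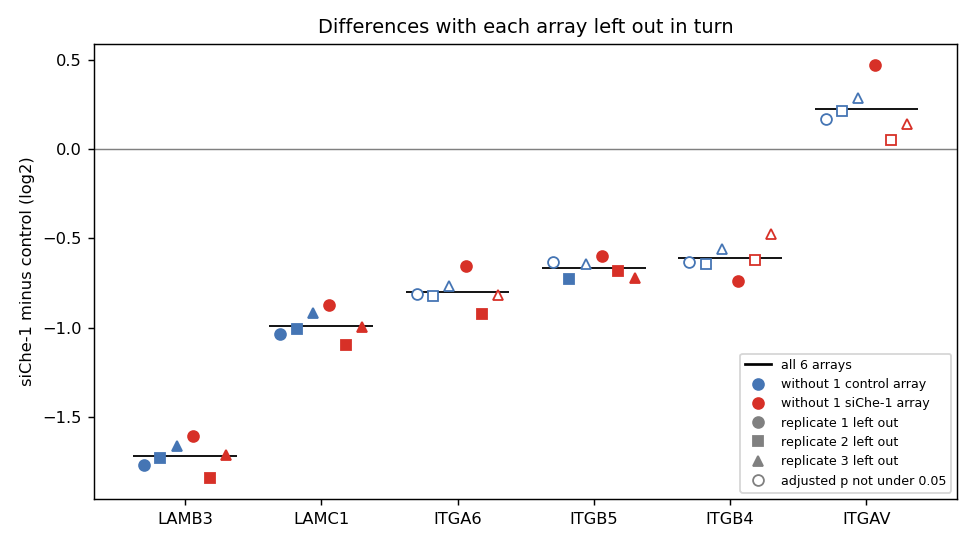
Difference of siChe-1 minus control (y axis, log2) of 6 chains with each array left out in turn, blue for a control and red for a siChe-1 array, open where the adjusted p was not under 0.05; the black bar is the value with all 6 arrays. All 6 points of LAMB3 and LAMC1 are filled, and ITGAV is filled only without siChe-1 replicate 1, at 0.47.

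Of a list of cytoplasmic proteins of the integrin adhesion complex, 26 were measured. Of these, 2 were lower, 1 was higher and 23 did not pass (median -0.08), where 2.52% of all genes were lower and 1.19% higher. FERMT1, the epithelial kindlin that activates integrins through the beta tail, was at 7.37 ± 0.09 and 6.77 ± 0.12 (SD, n = 3 each, difference -0.60, limma adjusted p = 0.0246). ACTN4, an actin crosslinker, differed by -0.61 (limma adjusted p = 0.0284). LIMS1, the PINCH adaptor that binds integrin-linked kinase, was higher by 0.72 (8.85 ± 0.09 against 8.13 ± 0.21, SD, n = 3 each, limma adjusted p = 0.0194). These counts rest on single arrays: no member was lower without any 1 control array or without siChe-1 replicate 3, and 5 were without siChe-1 replicate 1, a fit in which 4.48% of all genes were lower and 4.01% higher. The count of higher members was 0 when control replicate 1, control replicate 2 or siChe-1 replicate 3 was left out. There 63, 66 and 99 of all genes were higher, beside 220 with all arrays. Of all genes, 210, 224 and 199 were lower without control replicates 1, 2 and 3 in turn. Without siChe-1 replicate 3, 251 of all genes were lower, beside 465 with all arrays.

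None of 9 measured hemidesmosome genes, tetraspanins and other laminin receptors passed (median -0.18, with 3 at an unadjusted p under 0.05 by limma, where 17.7% of all genes were). Those with the smallest p were BCAM, a laminin alpha5 receptor of the immunoglobulin family, at 0.66 (limma adjusted p = 0.0598), and CD151, the tetraspanin bound to alpha3 and alpha6 integrins, at -0.40 (limma adjusted p = 0.133). Without siChe-1 replicate 1 this list gave 1 higher and 1 lower call, where 4.01% of all genes were higher and 4.48% lower. With the replicate number as a block it gave 1 higher call, where 416 of 18417 genes were higher. Without the dimmest 40% of genes it gave 1 higher call, where 249 of the genes kept were higher. With array weights it gave 1 higher and 2 lower calls, where 1348 and 1517 of 18417 genes were higher and lower. Among 16 basement membrane partners of laminin, such as nidogens, perlecan and type IV collagens, none passed (median 0.12, with 4 at an unadjusted p under 0.05 by limma, beside the same 17.7% of all genes). The smallest p there belonged to COL4A3 (0.35, limma adjusted p = 0.155, in the low range) and NTN1 (0.39, limma adjusted p = 0.196). Without siChe-1 replicate 1, 1 of these partners was lower, where 4.48% of all genes were. With array weights 1 was higher and 1 lower, beside the same 1348 and 1517 of all genes.

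Of 20 other integrin ligands, 2 passed, both of them lower, where 2.52% of all genes were lower (median of the list 0.09, with 3 higher and 3 lower at an unadjusted p under 0.05 by limma, where 7.88% and 9.77% of all genes were). Both are secreted proteins that bind integrins. THBS1, thrombospondin 1, differed by -1.16 ± 0.15 (SE, limma adjusted p = 0.00186), and CCN1, a ligand of alphaV and alpha6 integrins, by -1.33 ± 0.15 (SE, limma adjusted p = 0.000923), with no overlap in either. Without siChe-1 replicate 1, 3 ligands were lower and 1 was higher, where 4.48% and 4.01% of all genes were. Without any other single array 2 were lower, where 199 to 347 of all 18417 genes were. FN1, fibronectin, the ligand of alpha5beta1, read 4.77 in the control and 4.97 in the siChe-1 group, in the low range.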

How the data were processed

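Gene expression was measured on 6 Affymetrix whole-transcript arrays, each made from 6 micrograms of total RNA. The deposited values are log2 intensities. Per the submitters' processing notes, the authors used RMA and the Affymetrix Expression Console software, for which no version is given. RMA includes normalization between arrays, so a change in total RNA cannot be seen, and it compresses differences of dim genes. Scanner files were not used here. Of 33297 probe sets, 19460 had 1 symbol in the platform annotation, 1754 several, and 12083 were not listed. The probe set with the highest mean stood for a gene, giving 18417 genes.

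The contrast was siChe-1 minus control without covariates, fitted by lmFit and eBayes of limma 3.58.1 (R 4.3.3). Genes with a Benjamini-Hochberg adjusted p under 0.05 over all 18417 were called. The fit was tested on simulated data beforehand. Members and lists were chosen with earlier results of these data known. Named with values on all arrays were the called chains, the 8 uncalled chains of smallest p and the brightest chain of each main role, and ITGAV was added after its values were seen. From each other list, up to 5 called genes were named, or the 2 of smallest p. EPCAM, KRT8, KRT18, VIL1, PTPRC, TYROBP, NKG7, COL1A1 and FN1 were named outside this rule. Promoter sequences are from RefSeq (GRCh38.p14). The labels give no batch or scan date.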

Additional observations from a re-analysis of the deposited data

How the results depend on the processing

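When all 33297 probe sets were tested, 408 probe sets passed, beside 685 of the 18417 genes in the fit over genes. Over all genes, the 685 calls became 2865 with array weights, 261 at an adjusted p under 0.01, and 272 to 1565 with 1 array left out. The 4 lower chains became 2 with all probe sets tested or at an adjusted p under 0.01 (LAMB3 and LAMC1 in both), 7 with array weights (with ITGA5, ITGB4 and ITGB8 added), and 2 to 5 with 1 array left out. The count of higher chains was 1 (ITGAV) with array weights and 0 to 1 with 1 array left out. The 5 called genes of the 4 other lists became 2, 19 and 2 with all probe sets, array weights and the stricter threshold, and 2 to 13 with 1 array left out. With all probe sets tested ITGA6 had adjusted p = 0.0643 and ITGB5 0.0543. With arrays centred on the common median, 850 genes passed. The differences of LAMB3, LAMC1, ITGA6 and ITGB5 were then -1.78, -1.05, -0.86 and -0.73. ITGB4 passed with arrays centred on their medians (adjusted p = 0.0311), without the dimmest 40% of genes (0.0413) and with array weights (0.000626). The number of chains above the low reference level was 28 with the median of the markers. LAMB3 and LAMC1 passed under every alternative run, and no called difference changed sign.

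The labels share replicate numbers without saying what a number marks, so the numbers were not taken as pairs. The deviations of same-numbered arrays from their group means correlated at 0.23, 0.06 and -0.04 over genes, and not every array correlated best with its own number. Deviations from a mean of 3 arrays depend on each other, so these values cannot decide whether the arrays were paired. With the replicate block 1145 genes passed, ITGB4 joined the 4 lower chains (adjusted p = 0.0232), and 1 gene of the hemidesmosome and laminin receptor list became higher. The number of arrays, 3 a group, limits the precision: the 95% intervals of the chains extend 0.25 to 0.47 to either side on the log2 scale.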
